A study of Mus musculus with 16 samples.

Results

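Collagen genes were described in RNA sequencing of mouse colon. The members are the rows of the expression table whose symbol is Col, a number, the letter a and a number, such as Col1a1, and there are 44 of them among 24421 genes. All 44 passed the filter on low values and were tested. They fall into 11 chains of fibrillar collagens (types I, II, III, V, XI, XXIV and XXVII), 6 chains of the basement membrane collagen, type IV, and 27 chains of other types.

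Collagens are extracellular proteins whose chains are wound into a helix and then assembled into fibres, sheets or filaments. Fibrillar types I, III and V form the tensile fibres of the submucosa and lamina propria and are made mainly by fibroblasts. Type IV forms the sheet under the epithelium and around smooth muscle cells and vessels. The remaining types coat fibres, link fibres to cells or to basement membranes, or span the cell membrane.

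The mice were C57BL/6 animals of 8 weeks, and whole colon was sampled, on day 3 of treatment in the treated groups. The labels used here give no day for the mice on water. DIEC DSS mice lacked NCoR1, a nuclear receptor corepressor, in intestinal epithelial cells and drank 2.5% dextran sulfate sodium (DSS), a polysaccharide that injures the colon lining. DIEC naive mice carried the same deletion and drank water. F/F DSS mice, with floxed NCoR1 alleles and a genotype label of wild type, drank 2.5% DSS, and F/F naive mice drank water. Each group has 4 libraries, and each library holds the pooled RNA of 3 mice, so the spread is one between pools. The sources used here do not say what drives the deletion, and cells of the colon outside the epithelium are not named as targets of it. Ncor1 had values of 1663, 1546, 1343 and 1602 in DIEC DSS, 1823, 1756, 1979 and 1805 in DIEC naive, 4078, 3709, 3689 and 3736 in F/F DSS and 3445, 3730.4, 3585 and 3680.1 in F/F naive libraries. All DIEC libraries were lower than all F/F libraries.

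Each library held 22883415 to 30342046 gene reads in DIEC DSS, 19957413 to 29183138 in DIEC naive, 26363572 to 34733832 in F/F DSS and 22502529 to 27547730 in F/F naive. Values below are these reads divided by 1 factor per library, as deposited. The library DIEC DSS 3 stood apart on the second principal component over all genes, at 60.4 where the other 15 lay between -34.6 and 30. For 13 members with a mean value over 1000, the library numbered 1 was most often the highest of its group. This was DIEC DSS 1 in 12 members, DIEC naive 1 in 9, F/F DSS 1 in 9 and F/F naive 1 in 7. The lowest was DIEC naive 2 in 13, F/F DSS 2 in 12 and F/F naive 2 in 12. In the DIEC DSS group it was DIEC DSS 3 in 7 and DIEC DSS 2 in 6. Whole colon was sequenced, so fewer cells of a type and less RNA per cell cannot be told apart.

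Levels between genes were compared per kilobase of gene model. Col3a1, the chain of type III collagen, was the highest member at a mean of 2677 per kb over all libraries, followed by Col6a1 of the beaded filament collagen VI at 1221, Col1a2 at 1136, Col6a2 at 850.2, Col4a1 at 803 and Col1a1 at 654. The lowest were the cartilage chain Col2a1 and Col19a1, both at 0.189 per kb. Across the 4 groups 10 members had a mean value under 20. The 44 genes together took 0.193 ± 0.0557% in DIEC DSS, 0.217 ± 0.0344% in DIEC naive, 0.204 ± 0.0275% in F/F DSS and 0.248 ± 0.0268% in F/F naive libraries of the reads on genes (SD, n = 4 each), and these ranges overlapped between DSS and naive colon of both genotypes.

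**Figure D1:**
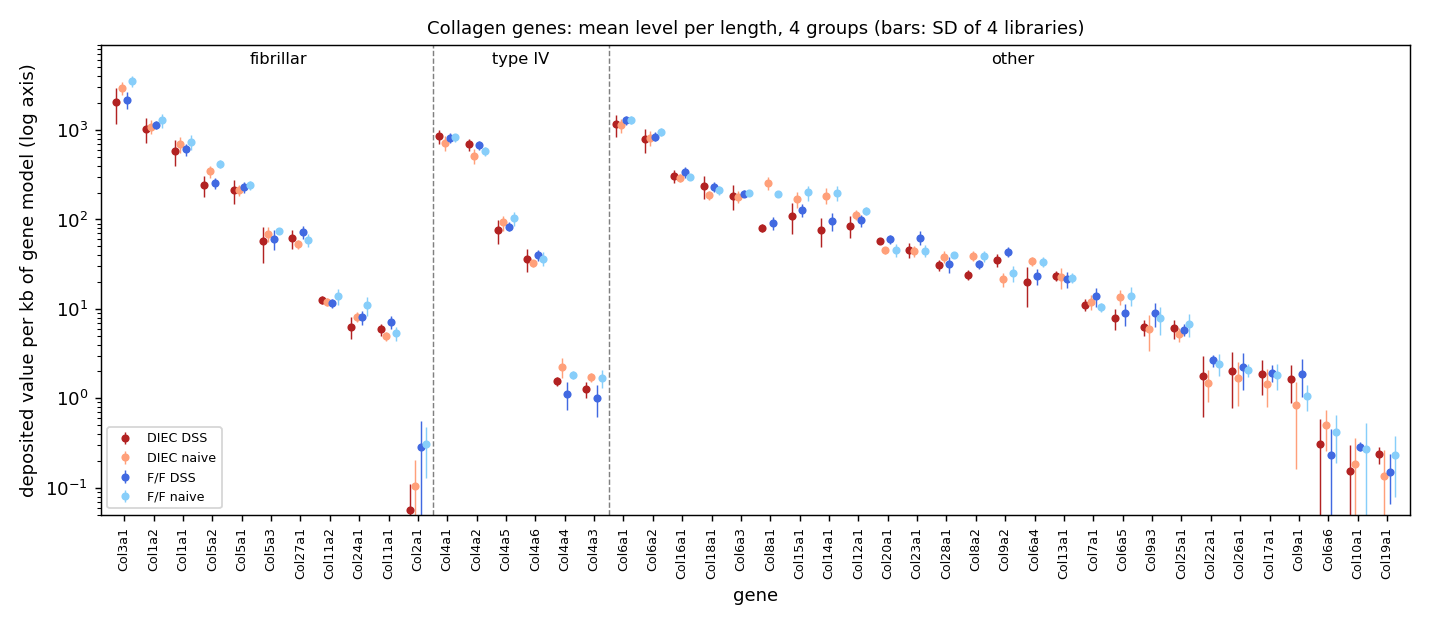
Mean deposited value per kilobase of gene model (y axis, log scale) of the 44 collagen genes (x axis) in the 4 groups, with bars for the SD of 4 libraries. Where the SD came close to the mean or exceeded it, the bar was shortened on both sides to just under the mean. Col3a1 is highest at a mean of 2677 per kb over all libraries, followed by Col6a1 and Col1a2.

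Each gene was tested by limma on log2(value + 1) over 18267 genes, and a gene is called where its Benjamini-Hochberg adjusted p over all of them is under 0.05. In DIEC DSS against DIEC naive colon, 11 of 44 members were called (25.0%), 3 higher and 8 lower, where 52.3% of all genes were called, 12.3% higher and 40.0% lower. In F/F DSS against F/F naive colon, 11 of 44 were called (25.0%), again 3 higher and 8 lower, where 44.8% of all genes were called, 16.3% higher and 28.5% lower. The median log2 change of the members was -0.03 in DIEC and -0.16 in F/F mice, against -0.24 and -0.11 over all genes. The 4 DSS and 4 naive libraries did not overlap for 7 members in DIEC mice, 3 higher and 4 lower, where 45.5% of all genes did not overlap, 9.59% higher and 35.9% lower. In F/F mice they did not overlap for 9 members, 3 higher and 6 lower, where 42.8% of all genes did not overlap, 15.5% higher and 27.4% lower.

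The split between higher and lower depends on how libraries are scaled. Rescaling by trimmed mean of M-values (TMM) raised the median change of all genes by 0.25 on the log2 scale in DIEC DSS against DIEC naive and by 0.10 in F/F DSS against F/F naive colon. After it, 9 members were called higher and 4 lower in DIEC mice, where 51.4% of all genes were called, 24.8% higher and 26.6% lower, and 7 higher and 6 lower in F/F mice, where 45.3% were called, 22.4% higher and 22.9% lower. Under both scalings 7 members were called in DIEC and 9 in F/F mice. The median of the members became 0.19 in DIEC and -0.07 in F/F mice, against -0.01 and -0.02 over all genes.

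**Figure D2:**
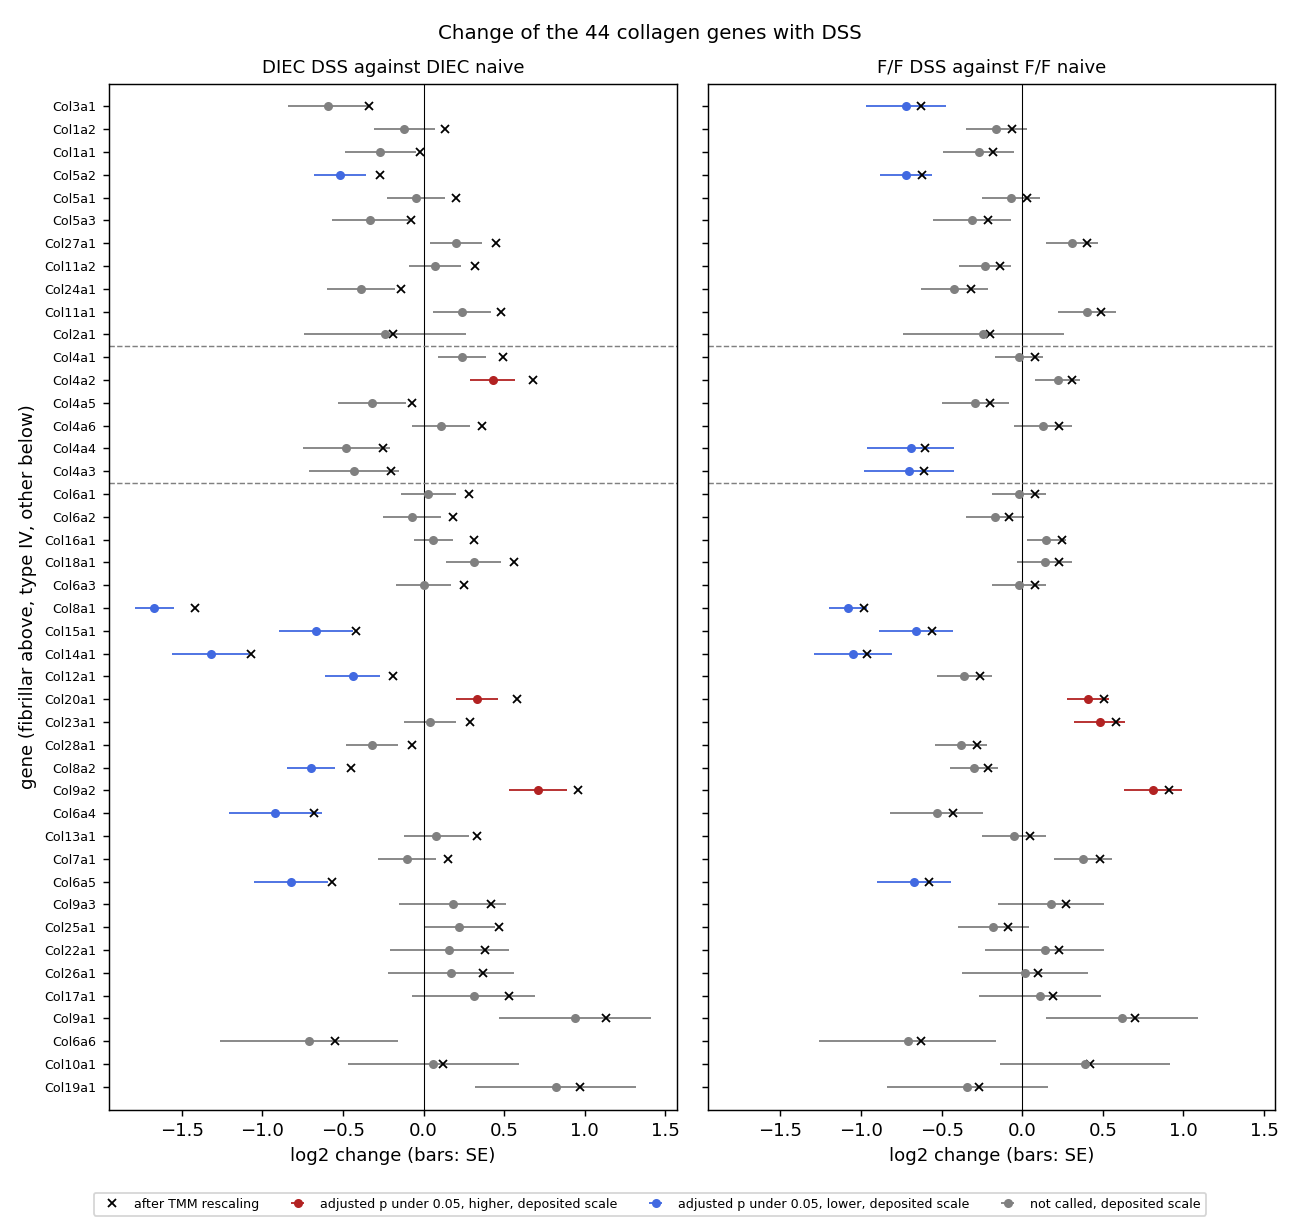
Log2 change with DSS (x axis) of each collagen gene (y axis, ordered by class and level) in DIEC mice on the left and F/F mice on the right, with bars for the SE. Filled points are on the deposited scale, coloured where called, and crosses show the same genes after TMM rescaling; Col8a1 is the lowest point in both panels, at -1.67 and -1.08.

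Among the fibrillar chains the type III gene Col3a1 and the type V gene Col5a2 were the members called lower in DSS colon, Col3a1 in F/F mice and Col5a2 in both genotypes, while the type I genes were not called. Col3a1 had values of 18275, 7022, 8747 and 11459 in the DIEC DSS libraries, against 19103, 12687, 15621 and 17639 in the DIEC naive libraries. Col3a1 read 15112, 8836, 11524 and 12245 in the F/F DSS libraries, against 23298, 17509, 17211 and 19799.8 in the F/F naive libraries. DSS libraries were lower in both genotypes, without overlap in F/F mice, whereas DIEC DSS 1 lay among the DIEC naive libraries. Col3a1 fell in F/F mice to 0.607 of the naive level (log2 change -0.72 ± 0.25, adjusted p = 0.032) and was not called in DIEC mice (log2 change -0.59 ± 0.25, adjusted p = 0.063). The F/F call ended without F/F DSS 2, 3 or 4 or F/F naive 1 or 4, with adjusted p up to 0.093, and in DIEC mice Col3a1 became called without DIEC DSS 1 or DIEC naive 2.

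Col5a2 encodes a chain of type V collagen, which sits inside type I fibrils and limits their width. Col5a2 had values of 2155, 1249.7, 1279.9 and 1707 in the DIEC DSS libraries, against 2620.2, 1836, 2171 and 2399 in the DIEC naive libraries. Col5a2 read 1796, 1322, 1776 and 1785 in the F/F DSS libraries, against 3043, 2369, 2722 and 2823 in the F/F naive libraries. DSS libraries were below every naive library in F/F mice, and in DIEC mice only DIEC DSS 1 reached the naive range. Col5a2 fell in DIEC mice (log2 change -0.52 ± 0.16, adjusted p = 0.013) and in F/F mice (log2 change -0.72 ± 0.16, adjusted p = 0.0019). The DIEC call ended after TMM rescaling (-0.27, adjusted p = 0.11).

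The type I chains Col1a1 and Col1a2 form the main load-bearing fibre of connective tissue. Col1a1 had values of 4972, 2505, 2700.3 and 3579 in the DIEC DSS libraries, against 4503, 3098, 3676 and 4967 in the DIEC naive libraries. Col1a1 read 3961, 2729, 3673 and 3880.1 in the F/F DSS libraries, against 5180.2, 3231, 4173 and 4684 in the F/F naive libraries. DSS and naive libraries overlapped in both genotypes. Col1a2 had values of 7572, 4254, 4010.4 and 5062 in the DIEC DSS libraries, against 6439, 4306, 5237 and 6295 in the DIEC naive libraries. Col1a2 read 6409, 4879, 6078 and 5878 in the F/F DSS libraries, against 7937, 5302, 6010.0 and 6793 in the F/F naive libraries. These groups overlapped as well. The log2 change of Col1a1 was -0.27 in DIEC mice (95% interval -0.71 to 0.17) and -0.27 in F/F mice (-0.71 to 0.16). For Col1a2 it was -0.12 (-0.49 to 0.25) in DIEC and -0.16 (-0.53 to 0.22) in F/F mice, so changes of either sign remain within the intervals.

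The partner of Col5a2 in type V collagen, Col5a1, averaged 1762 ± 528 in DIEC DSS, 1777 ± 258 in DIEC naive, 1913 ± 269 in F/F DSS and 1998 ± 224 in F/F naive libraries (SD, n = 4 each). It was not called with DSS in either genotype (log2 change -0.05 and -0.07 in DIEC and F/F mice). The remaining fibrillar chains Col2a1, Col5a3, Col11a1, Col11a2, Col24a1 and Col27a1 were not called either, with log2 changes between -0.42 and 0.40 over both genotypes. After TMM rescaling Col11a1 and Col27a1 were called higher in both, at 0.48 and 0.45 in DIEC and 0.49 and 0.40 in F/F mice.

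Of the type IV chains, Col4a2 was called higher in DIEC mice, and Col4a3 and Col4a4 lower in F/F mice. Col4a1 and Col4a2 build the network found in most basement membranes, and in the mm9 gene models of the table their starts lie 21 bp apart on opposite strands (Col4a1 chr8:11198423-11312826, - strand; Col4a2 chr8:11312805-11449287, + strand). Col4a2 had values of 5312, 3898, 3788 and 4654 in the DIEC DSS libraries, against 3573, 2406, 3414 and 3769 in the DIEC naive libraries. Col4a2 read 4438, 3602, 4708 and 4453 in the F/F DSS libraries, against 3538, 3262, 4245 and 3739 in the F/F naive libraries. DIEC DSS libraries were all above the DIEC naive ones, and the F/F groups overlapped. Col4a2 rose in DIEC mice (log2 change 0.43 ± 0.14, adjusted p = 0.014), a call that ended without DIEC DSS 1 or DIEC naive 2 (adjusted p up to 0.054), and was not called in F/F mice (log2 change 0.22 ± 0.14, adjusted p = 0.22; 0.31, adjusted p = 0.043 after TMM rescaling). Col4a1 had values of 6678, 4749, 4791 and 5985 in the DIEC DSS libraries, against 5113, 3353, 5005 and 5414 in the DIEC naive libraries. Col4a1 read 5391, 4463, 5886 and 5774 in the F/F DSS libraries, against 5036, 4913, 6091 and 5664 in the F/F naive libraries. These groups overlapped in both genotypes, and Col4a1 was not called on the deposited scale (log2 change 0.24 ± 0.15, adjusted p = 0.18 in DIEC and -0.02 ± 0.15, adjusted p = 0.95 in F/F mice). In DIEC mice it was called higher after TMM rescaling (0.49, adjusted p = 0.0038), by edgeR (adjusted p = 0.0032) and by DESeq2 (adjusted p = 5.4e-04).

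Col4a3 and Col4a4, chains of the specialised network best known from the kidney filter, were low in the colon. Their means were 8.7 ± 3.4 and 8.73 ± 2.99 in F/F DSS libraries, against 14.3 ± 3.17 and 14.2 ± 1.52 in F/F naive libraries (SD, n = 4). Both fell in F/F mice (log2 change -0.70 and -0.69, adjusted p = 0.047 and 0.041) and were not called in DIEC mice (-0.43 and -0.48). Both calls ended after TMM rescaling (adjusted p = 0.072 and 0.065). Leaving out F/F DSS 2, F/F DSS 3, F/F naive 3 or F/F naive 4 ended both as well, F/F DSS 4 or F/F naive 1 that of Col4a3 and F/F naive 2 that of Col4a4, with adjusted p up to 0.16. Col4a5, which also joins a network around smooth muscle with Col4a6, was not called: Col4a5 stood at 624, 288, 476 and 571 in the DIEC DSS libraries, against 741, 464, 623 and 558 in the DIEC naive libraries. Col4a5 read 597, 493, 471 and 587 in the F/F DSS libraries, against 819.8, 530.2, 641 and 661 in the F/F naive libraries. These groups overlapped, and Col4a6 was not called either (log2 change 0.11 in DIEC and 0.13 in F/F mice), though edgeR and DESeq2 called it higher in DIEC mice (adjusted p = 0.042 and 0.03).

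Of the other types, the short-chain gene Col8a1 had the largest change of all 44 members in both genotypes. Type VIII collagen forms lattices in vessel walls and in the inner membrane of the cornea. Col8a1 had values of 434, 355, 392 and 447 in the DIEC DSS libraries, against 1519, 1279, 1402 and 1009 in the DIEC naive libraries. Col8a1 read 464, 394, 436 and 569 in the F/F DSS libraries, against 939.9, 949, 1004 and 1015 in the F/F naive libraries. No DSS library reached any naive library in either genotype. Col8a1 fell to 0.315 of the naive level in DIEC mice (log2 change -1.67 ± 0.12, adjusted p = 6.5e-09) and to 0.473 in F/F mice (log2 change -1.08 ± 0.12, adjusted p = 2.3e-06). Its partner chain Col8a2 fell in DIEC mice (log2 change -0.70 ± 0.15, adjusted p = 5.2e-04) and was not called in F/F mice (log2 change -0.30 ± 0.15, adjusted p = 0.1). The calls of both chains held with each library left out in turn.

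Among the FACIT chains, which bind to the surface of fibrils, Col14a1 was lower and Col9a2 higher with DSS. Col14a1 had values of 724, 312, 420.1 and 505 in the DIEC DSS libraries, against 1487, 909, 1149.6 and 1192 in the DIEC naive libraries. Col14a1 read 786, 480.1, 514 and 694 in the F/F DSS libraries, against 1596, 1021, 1217 and 1262 in the F/F naive libraries. DSS libraries lay below naive libraries without overlap in both genotypes. Col14a1, a partner of type I fibrils, fell in DIEC (log2 change -1.32 ± 0.24, adjusted p = 3.3e-04) and in F/F mice (log2 change -1.05 ± 0.24, adjusted p = 0.0026). Col9a2 had values of 110.5, 74.4, 91.7 and 108 in the DIEC DSS libraries, against 71.1, 61.9, 53.2 and 47 in the DIEC naive libraries. Col9a2 read 125, 109, 136 and 105 in the F/F DSS libraries, against 73, 48.2, 72 and 77.5 in the F/F naive libraries. DSS libraries were the higher ones in both genotypes, again without overlap. Col9a2, a chain of the type IX collagen that coats cartilage fibrils, rose in DIEC (log2 change 0.71 ± 0.18, adjusted p = 0.0027) and in F/F mice (log2 change 0.81 ± 0.18, adjusted p = 0.0013). All of these calls held with each library left out in turn.

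Col20a1, another FACIT chain, rose to 237 ± 13.7 in DIEC DSS, against 189 ± 16.9 in DIEC naive libraries (SD, n = 4; log2 change 0.33 ± 0.13, adjusted p = 0.037). It rose to 251 ± 30.3 in F/F DSS, against 189 ± 29.4 in F/F naive libraries (log2 change 0.41 ± 0.13, adjusted p = 0.012). Groups did not overlap in either genotype. The DIEC call ended without any of the libraries DIEC DSS 1, 2 or 4 or DIEC naive 1, 2 or 4 (adjusted p up to 0.088), and the F/F call without F/F DSS 3 or F/F naive 2 (adjusted p up to 0.059). Col12a1, which like Col14a1 decorates type I fibrils, fell in DIEC mice (log2 change -0.44 ± 0.17, adjusted p = 0.04) and was not called in F/F mice (log2 change -0.36 ± 0.17, adjusted p = 0.1). The DIEC call of Col12a1 ended after TMM rescaling (-0.19, adjusted p = 0.28) and without DIEC DSS 2 or 3 or DIEC naive 1 or 3 (adjusted p up to 0.13). The FACIT chains Col9a1, Col9a3, Col16a1, Col19a1 and Col22a1 were not called on the deposited scale. After TMM rescaling Col9a1 (1.13, adjusted p = 0.046) and Col16a1 (0.31, adjusted p = 0.014) were called higher in DIEC mice. Col9a1 was low, at 4.98 ± 2.27 in DIEC DSS, against 2.6 ± 2.1 in DIEC naive libraries, with overlap. It was too low to be tested by edgeR and DESeq2. Col16a1 was also called higher by edgeR and DESeq2 in DIEC (adjusted p = 0.011 and 0.0057) and in F/F mice (adjusted p = 0.042 and 0.036). Col9a3 shares 7.68% of its exonic bases with the opposite-strand gene Tcfl5, so its value is uncertain.

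Of the type VI chains, Col6a4 and Col6a5 were called lower in DIEC mice and Col6a5 in F/F mice. Col6a1, Col6a2 and Col6a3 together form the main beaded filament, which anchors cells to the surrounding fibres. Col6a1 had values of 6349, 3642, 3708 and 4622 in the DIEC DSS libraries, against 5298, 3579, 3953 and 4910.0 in the DIEC naive libraries. Col6a1 read 5759, 4249, 5181 and 5153 in the F/F DSS libraries, against 5774, 4359, 5159 and 5254 in the F/F naive libraries. DSS and naive libraries overlapped fully. Col6a2 had values of 4059, 2327, 2182 and 3130.2 in the DIEC DSS libraries, against 3379.6, 2310.3, 2795 and 3586 in the DIEC naive libraries. Col6a2 read 3519, 2654, 3218 and 3092 in the F/F DSS libraries, against 3721, 3040.2, 3494 and 3809 in the F/F naive libraries. Here too the groups overlapped in both genotypes. Col6a3 had values of 2827, 1586, 1456 and 2091 in the DIEC DSS libraries, against 2166, 1548, 1925 and 2138 in the DIEC naive libraries. Col6a3 read 2384, 2066, 2059 and 1904 in the F/F DSS libraries, against 2176, 1907, 2228 and 2192 in the F/F naive libraries. None of the 3 chains was called, with log2 changes between -0.17 and 0.03 over both genotypes. The 95% interval for Col6a1 was -0.30 to 0.36 in DIEC and -0.34 to 0.31 in F/F mice.

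Col6a4, Col6a5 and Col6a6, chains related to Col6a3 that lie side by side on chromosome 9, were far lower in level. Col6a5 had values of 87.5, 47.3, 67.3 and 87.9 in the DIEC DSS libraries, against 126, 123, 157 and 99 in the DIEC naive libraries. Col6a5 read 95.7, 58.9, 68.2 and 107 in the F/F DSS libraries, against 168, 134, 127 and 93 in the F/F naive libraries. DSS libraries were below naive libraries without overlap in DIEC mice, with overlap in F/F mice. Col6a5 fell in DIEC (log2 change -0.82 ± 0.23, adjusted p = 0.0057) and in F/F mice (log2 change -0.67 ± 0.23, adjusted p = 0.023), where the call ended without F/F DSS 2 or 3 or F/F naive 1 or 2 (adjusted p up to 0.088). Col6a4 had values of 129, 217, 59.2 and 181 in the DIEC DSS libraries, against 269.6, 209, 274 and 258 in the DIEC naive libraries. Col6a4 read 144, 148, 222 and 177 in the F/F DSS libraries, against 216, 225, 269 and 278 in the F/F naive libraries. In both genotypes the highest DSS library reached the naive range. Col6a4 fell in DIEC mice (log2 change -0.92 ± 0.29, adjusted p = 0.014), a call that ended after TMM rescaling (adjusted p = 0.059), and was not called in F/F mice (log2 change -0.53 ± 0.29, adjusted p = 0.16). With each library left out in turn, its change in DIEC mice stayed called and ranged from -1.16 without DIEC DSS 2 to -0.54 without DIEC DSS 3.

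Col15a1 and Col18a1 encode multiplexins, proteoglycans of the basement membrane zone of vessels and muscle. Col15a1 fell to 583 ± 217 in DIEC DSS, against 896 ± 184 in DIEC naive libraries (SD, n = 4; log2 change -0.67 ± 0.23, adjusted p = 0.024). It fell to 671 ± 106 in F/F DSS, against 1062 ± 203 in F/F naive libraries (log2 change -0.66 ± 0.23, adjusted p = 0.03). Groups overlapped in DIEC mice and not in F/F mice. The DIEC call ended after TMM rescaling (-0.42, adjusted p = 0.11) and without DIEC DSS 2 or 3 or DIEC naive 1 or 4 (adjusted p up to 0.073). The F/F call ended without F/F DSS 2, 3 or 4 or F/F naive 1 or 4 (adjusted p up to 0.089). Col18a1, whose end can be released as endostatin, had the opposite sign and was not called (log2 change 0.31 in DIEC and 0.14 in F/F mice), and was called higher in DIEC mice after TMM rescaling (0.56, adjusted p = 0.0032).

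Col23a1, a collagen that spans the cell membrane, was on the deposited scale the member called higher in F/F mice and not in DIEC mice. Col23a1 had values of 266, 205, 243 and 321 in the DIEC DSS libraries, against 287, 248, 266 and 199 in the DIEC naive libraries. Col23a1 read 425, 304, 298 and 387 in the F/F DSS libraries, against 272, 214, 297 and 223 in the F/F naive libraries. F/F DSS libraries were just above every F/F naive library, and the DIEC groups overlapped. Col23a1 rose in F/F mice (log2 change 0.48 ± 0.16, adjusted p = 0.018) and was not called in DIEC mice (log2 change 0.04 ± 0.16, adjusted p = 0.85). The difference between these responses was not called (log2 change -0.44 ± 0.22, adjusted p = 0.25). The F/F call ended without F/F DSS 1 or 4 or F/F naive 2 or 4 (adjusted p up to 0.069). After TMM rescaling the change of Col23a1 was 0.58 in F/F mice (adjusted p = 0.003) and 0.29 in DIEC mice (adjusted p = 0.1). The difference was not called after it either (-0.29, adjusted p = 0.58). The hemidesmosome chain Col17a1, Col13a1 and Col25a1 also span the membrane and were not called. Col7a1, the anchoring fibril chain that ties the basement membrane to the stroma, was not called on the deposited scale (log2 change 0.38 ± 0.18, adjusted p = 0.086 in F/F mice) and was called higher in F/F mice after TMM rescaling (0.48, adjusted p = 0.026), by edgeR (adjusted p = 0.021) and by DESeq2 (adjusted p = 0.016). Col10a1, Col26a1 and Col28a1 were not called.

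**Figure D3:**
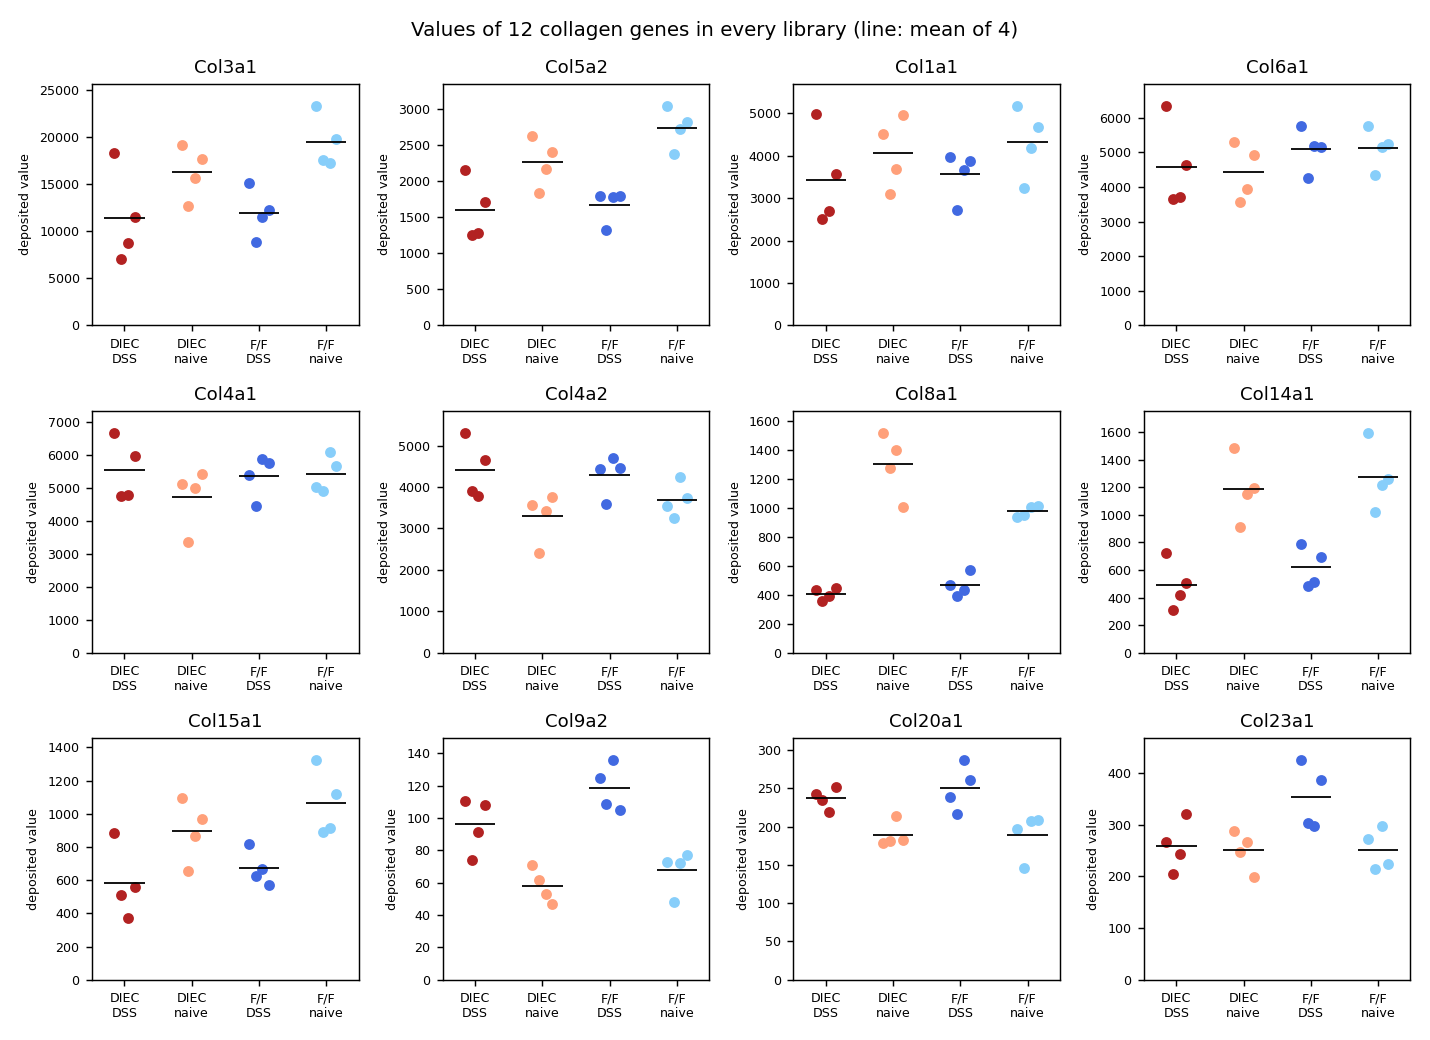
Deposited values (y axis, from 0) of 12 collagen genes in each of the 4 libraries of the 4 groups (x axis), with a line at the mean of 4. DSS points lie below naive points without overlap for Col8a1 and Col14a1 and above them for Col9a2 and Col20a1, while the points of Col1a1 and Col6a1 overlap.

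Sequence just upstream of the annotated start is shown for 4 called genes, since Col8a1 and Col6a5 fell with DSS in both genotypes, and in F/F mice Col3a1 fell and Col23a1 rose. Each line gives the 150 bases before the RefSeq start in the GRCm38.p6 build, 5′ to 3′ on the gene's strand, and no annotated exon overlaps these windows. Capitals mark 3 motifs, namely TATAAA for the TATA box, CCAAT for the box of that name and GGGCGG for the GC box, and a match on the other strand shows as the reverse complement. Neighbouring matches can touch but did not overlap here.
Col8a1 (chr16:57754738-57754887, - strand): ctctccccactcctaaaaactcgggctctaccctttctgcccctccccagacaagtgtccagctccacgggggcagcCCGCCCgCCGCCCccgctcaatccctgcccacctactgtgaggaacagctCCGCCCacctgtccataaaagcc
Col3a1 (chr1:45311388-45311537, + strand): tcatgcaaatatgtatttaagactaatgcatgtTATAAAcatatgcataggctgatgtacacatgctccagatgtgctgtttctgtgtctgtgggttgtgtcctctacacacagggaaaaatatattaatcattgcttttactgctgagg
Col6a5 (chr9:105960644-105960793, - strand): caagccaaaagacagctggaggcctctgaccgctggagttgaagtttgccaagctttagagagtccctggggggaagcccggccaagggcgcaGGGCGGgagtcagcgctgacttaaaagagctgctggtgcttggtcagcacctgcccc
Col23a1 (chr11:51289770-51289919, + strand): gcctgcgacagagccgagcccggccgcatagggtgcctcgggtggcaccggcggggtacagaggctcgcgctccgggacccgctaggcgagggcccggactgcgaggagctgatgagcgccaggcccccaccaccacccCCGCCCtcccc
The window of Col8a1 held 3 GC boxes and that of Col3a1 none, with a TATA box 117 bases before the start. Col6a5 and Col23a1 held 1 GC box each. Among all 32851 RefSeq promoters, 28.6% held a GC box in such a window, 24.5% a CCAAT box and 7.57% a TATA box. Of 38 promoters of 35 collagen genes with an entry, 19 held a GC box, 8 a CCAAT box and 4 a TATA box. These are matches of letters, and binding was not measured.

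Across genotypes, 7 members were called in the same direction with DSS in both: Col9a2 and Col20a1 higher, and Col5a2, Col6a5, Col8a1, Col14a1 and Col15a1 lower. Of these, Col6a5, Col8a1, Col9a2, Col14a1 and Col20a1 were called under both scalings. On the deposited scale Col4a2, Col6a4, Col8a2 and Col12a1 passed in DIEC mice and not in F/F mice. Col3a1, Col4a3, Col4a4 and Col23a1 passed there in F/F mice and not in DIEC mice. After TMM rescaling Col4a2 was called higher in F/F mice too (0.31, adjusted p = 0.043). The DIEC calls of Col6a4 and Col12a1 and the F/F calls of Col4a3 and Col4a4 ended after it. The test of the difference itself, the genotype by DSS interaction, called 0 of 44 members in limma, where 3.63% of all genes were called. At an unadjusted p under 0.05 it gave 1 member, Col8a1, and edgeR, DESeq2 and TMM rescaling, where 0.635% of all genes were called, also gave 0. With a replicate block limma called 1 member, and the calls over all genes in that fit are given in the closing section. For Col8a1 the change with DSS was lower by 0.59 on the log2 scale in DIEC than in F/F mice (log2 change -0.59 ± 0.17, adjusted p = 0.062; -0.43, adjusted p = 0.22 after TMM rescaling). It became called without DIEC naive 4 or F/F DSS 2.

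Genotype made less difference to these genes than DSS did in number of calls. In DIEC naive against F/F naive colon, limma called 0 of 44 members, where 2.23% of all genes were called. The member with an unadjusted p under 0.05 was Col8a1, which averaged 1303 ± 218 in DIEC naive and 977 ± 37.9 in F/F naive libraries (SD, n = 4 each; log2 change 0.40 ± 0.12, adjusted p = 0.1). Its values in the library lists above overlap, DIEC naive 4 lying within the F/F naive range. Col8a1 was the 1 member called, and higher, after TMM rescaling, where 2.41% of all genes were called (0.44, adjusted p = 0.041), by edgeR (adjusted p = 0.028) and by DESeq2 (adjusted p = 0.0053), and by limma without DIEC naive 4. The median log2 change of the members was -0.16, against -0.05 over all genes, and after TMM rescaling -0.12, against -0.01 over all genes. The groups overlapped for every member, where 10.7% of all genes did not overlap.

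In DIEC DSS against F/F DSS colon, 1 of 44 members was called, where 29.3% of all genes were called, 26.0% lower. After TMM rescaling, which raised the median of all genes by 0.19, 0 members were called, where 13.7% of all genes were. The member was Col23a1, which averaged 258 ± 48.5 in DIEC DSS and 353 ± 62.9 in F/F DSS libraries (log2 change -0.45 ± 0.16, adjusted p = 0.039). Its DIEC DSS and F/F DSS values overlapped. The call ended after TMM rescaling (-0.26, adjusted p = 0.26), in edgeR and DESeq2, and without DIEC DSS 2 or 3 or F/F DSS 1 or 4 (adjusted p up to 0.13). Groups overlapped for all 44 members, where 25.0% of all genes did not overlap.

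Ratios of chains within a library do not depend on how libraries are scaled. The ratio of Col5a1 to Col5a2 per kb was 0.893, 0.876, 0.801 and 0.88 in DIEC DSS, against 0.604, 0.615, 0.624 and 0.635 in DIEC naive libraries. It was 0.944, 0.912, 0.897 and 0.857 in F/F DSS, against 0.578, 0.563, 0.594 and 0.559 in F/F naive libraries. Every DSS library was above every naive library in both genotypes. The ratio of Col4a2 to Col4a1 averaged 0.816 ± 0.0186 in DIEC DSS, 0.716 ± 0.0149 in DIEC naive, 0.82 ± 0.0224 in F/F DSS and 0.698 ± 0.0225 in F/F naive libraries (SD, n = 4 each). It too was higher in each DSS library than in any naive library. Col3a1 over Col1a1 averaged 3.44 ± 0.38 in DIEC DSS, 4.3 ± 0.352 in DIEC naive, 3.56 ± 0.343 in F/F DSS and 4.87 ± 0.628 in F/F naive libraries. Col1a2 over Col1a1 averaged 1.77 ± 0.14 in DIEC DSS, 1.59 ± 0.0876 in DIEC naive, 1.9 ± 0.13 in F/F DSS and 1.75 ± 0.107 in F/F naive libraries. Col6a2 over Col6a1 averaged 0.677 ± 0.0388 in DIEC DSS, 0.724 ± 0.0485 in DIEC naive, 0.654 ± 0.0118 in F/F DSS and 0.731 ± 0.0361 in F/F naive libraries. The ratio of Col1a2 to Col1a1 overlapped between DSS and naive libraries in both genotypes. The other two, Col3a1 over Col1a1 and Col6a2 over Col6a1, were lower in DSS colon with overlap in DIEC mice and without it in F/F mice.

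**Figure D4:**
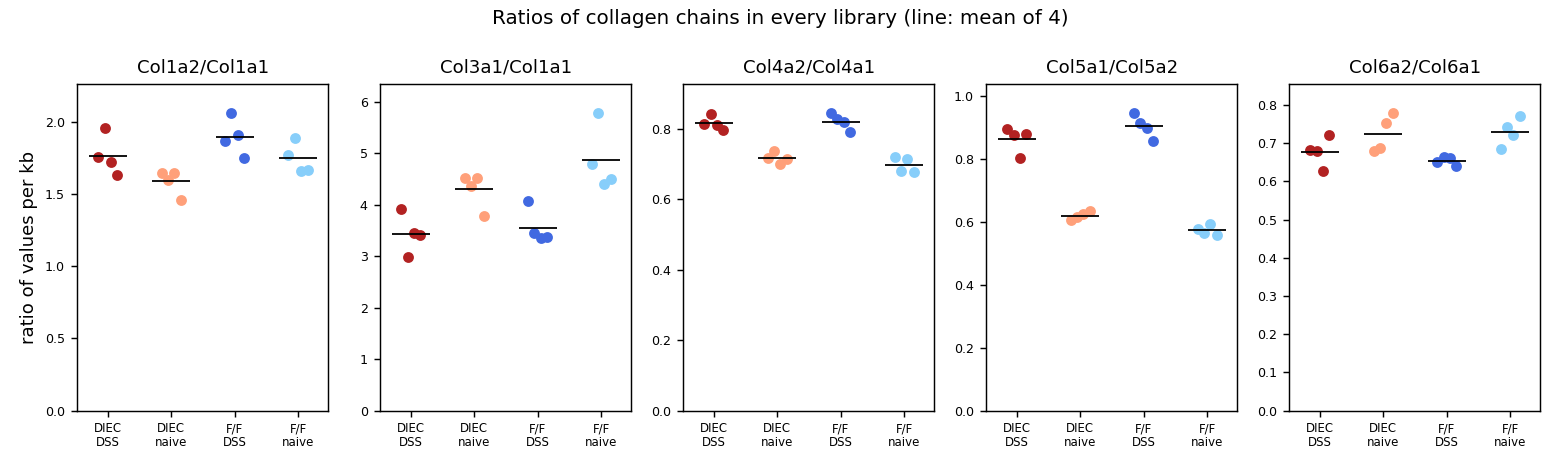
Ratio of values per kb (y axis, from 0) for 5 pairs of collagen chains in each of the 4 libraries of the 4 groups (x axis), with a line at the mean. Col5a1/Col5a2 and Col4a2/Col4a1 lie higher in every DSS library than in any naive library, with means of 0.862 and 0.816 in DIEC DSS, against 0.62 and 0.716 in DIEC naive.

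By class, the fibrillar chains made up 45.6 ± 3.31% in DIEC DSS, 52.2 ± 0.645% in DIEC naive, 46.3 ± 1.69% in F/F DSS and 53.4 ± 2.37% in F/F naive libraries of the collagen signal per kb (SD, n = 4 each). Every DSS library was below every naive library. Type IV chains made up 18.3 ± 1.94% in DIEC DSS, 13.1 ± 0.954% in DIEC naive, 16.5 ± 1.12% in F/F DSS and 13.1 ± 1.6% in F/F naive libraries. These were higher in DSS libraries without overlap in DIEC mice and with overlap in F/F mice, where the lowest F/F DSS share was 14.9% and the highest F/F naive share 15.0%. Col3a1 alone made up 21.7 ± 3.19% in DIEC DSS, 28.3 ± 0.408% in DIEC naive, 21.9 ± 1.95% in F/F DSS and 29.7 ± 1.97% in F/F naive libraries. Col3a1 is counted in the fibrillar share, and its own share, unlike its value, was lower in every DSS library than in any naive library. A fall of the other fibrillar chains as a set therefore does not follow from the fibrillar share. The class shares add up to the whole, so a lower share of a class raises the others.

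Genes that process collagen chains, from a list of 30 tested, were called higher in 1 and lower in 8 cases in DIEC DSS against DIEC naive colon, and higher in 1 and lower in 5 in F/F DSS against F/F naive colon. Over all genes 12.3% were higher and 40.0% lower in DIEC, and 16.3% higher and 28.5% lower in F/F mice, against which the counts of this list and of the lists that follow are to be read. After TMM rescaling the counts became 7 higher and 5 lower in DIEC and 3 higher and 5 lower in F/F mice, where the shares over all genes were 24.8% higher and 26.6% lower in DIEC, and 22.4% higher and 22.9% lower in F/F mice. Ppib, a prolyl isomerase that speeds folding of the helix, fell in DIEC (log2 change -0.64 ± 0.07, adjusted p = 7.0e-07) and in F/F mice (log2 change -0.63 ± 0.07, adjusted p = 3.0e-06). Fkbp14, another isomerase for collagen chains, fell as well (log2 change -0.43 in DIEC and -0.54 in F/F mice), and its DIEC call ended after TMM rescaling (adjusted p = 0.15). Colgalt1, which adds galactose to hydroxylysine, fell with DSS in DIEC mice (log2 change -0.42 ± 0.08, adjusted p = 1.1e-04) and was lower in DIEC DSS than in F/F DSS colon (log2 change -0.54 ± 0.08, adjusted p = 8.2e-05). Colgalt1 was not called with DSS in F/F mice (log2 change -0.06 ± 0.08, adjusted p = 0.58). Lox, the cross-linking oxidase, fell in DIEC (log2 change -0.77 ± 0.22, adjusted p = 0.0051) and in F/F mice (log2 change -0.92 ± 0.22, adjusted p = 0.0018). In DIEC naive against F/F naive colon 0 of the 30 were called by limma.

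Of 15 fibril-associated proteins, 3 were higher and 4 lower in DIEC mice with DSS, and 4 higher and 4 lower in F/F mice. After TMM rescaling 4 were higher and 2 lower in DIEC mice, and 4 higher and 4 lower in F/F mice. Osteoglycin (Ogn) fell in both genotypes (-0.87 in DIEC and -0.72 in F/F mice on the log2 scale), as did asporin (Aspn, -0.65 in DIEC and -0.73 in F/F mice), both small leucine-rich proteins that bind fibrils. Decorin (Dcn), which spaces fibrils, fell in DIEC (log2 change -0.53 ± 0.13, adjusted p = 0.0027) and in F/F mice (log2 change -0.56 ± 0.13, adjusted p = 0.0022), and its DIEC call ended after TMM rescaling (-0.28). Thrombospondin 2 (Thbs2) rose in DIEC (log2 change 0.56 ± 0.12, adjusted p = 7.5e-04) and in F/F mice (log2 change 0.59 ± 0.12, adjusted p = 7.2e-04), and fibronectin (Fn1) rose in DIEC (log2 change 0.81 ± 0.18, adjusted p = 0.0012) and in F/F mice (log2 change 0.53 ± 0.18, adjusted p = 0.024).

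Of 18 laminins and other basement membrane genes, 5 were higher and 3 lower in DIEC mice with DSS, and 7 higher and 3 lower in F/F mice. After TMM rescaling the counts were 10 higher and 1 lower in DIEC mice and 7 higher and 2 lower in F/F mice. The epithelial laminin chain Lamb3 rose in DIEC (log2 change 0.67 ± 0.12, adjusted p = 7.1e-05) and in F/F mice (log2 change 0.62 ± 0.12, adjusted p = 2.6e-04), and Lama5 rose in DIEC (log2 change 0.49 ± 0.13, adjusted p = 0.004) and in F/F mice (log2 change 0.92 ± 0.13, adjusted p = 2.5e-05). Lama2, the laminin chain of muscle and stroma, fell in DIEC (log2 change -1.29 ± 0.22, adjusted p = 8.8e-05) and in F/F mice (log2 change -0.99 ± 0.22, adjusted p = 0.0014). Lama5 was also higher in DIEC naive than in F/F naive colon (log2 change 0.66 ± 0.13, adjusted p = 0.0089).

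Of 10 collagen receptors, 2 were higher and 4 lower in DIEC mice with DSS, and 2 higher and 3 lower in F/F mice, and after TMM rescaling 3 higher and 2 lower in DIEC mice and 3 higher and 3 lower in F/F mice. Itga2, the integrin chain that binds fibrillar collagen on epithelial cells, fell in DIEC (log2 change -2.09 ± 0.16, adjusted p = 1.2e-08) and in F/F mice (log2 change -1.47 ± 0.16, adjusted p = 2.1e-06). Ddr1, a receptor tyrosine kinase for collagen, rose in DIEC (log2 change 0.58 ± 0.09, adjusted p = 2.6e-05) and in F/F mice (log2 change 0.70 ± 0.09, adjusted p = 9.5e-06). Of 18 genes of TGF-β signalling, a pathway known to induce collagen genes, 6 were higher and 2 lower in DIEC mice, and 6 higher and 1 lower in F/F mice, and after TMM rescaling 11 higher and 1 lower in DIEC mice and 8 higher and 1 lower in F/F mice. The receptor Tgfbr1 fell in DIEC (log2 change -0.60 ± 0.08, adjusted p = 2.3e-06) and in F/F mice (log2 change -0.61 ± 0.08, adjusted p = 6.6e-06), while the signal mediator Smad3 rose (0.40 in DIEC and 0.46 in F/F mice). Skil, a repressor of SMAD signalling, was higher in DIEC naive than in F/F naive colon (log2 change 0.60 ± 0.08, adjusted p = 3.0e-04) and in DIEC DSS than in F/F DSS colon (log2 change 0.49 ± 0.08, adjusted p = 3.1e-04).

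Counts of cell type markers on the deposited scale are to be read against the same shares of all genes. These were 12.3% higher and 40.0% lower in DIEC, and 16.3% higher and 28.5% lower in F/F mice. For counts after TMM rescaling the shares were 24.8% higher and 26.6% lower in DIEC, and 22.4% higher and 22.9% lower in F/F mice. Of 10 fibroblast markers, 0 were higher and 5 lower in each genotype, in DIEC mice near the share over all genes. Their summed values were 6509 to 10821 in DIEC DSS, 9742 to 12512 in DIEC naive, 8030.3 to 10094 in F/F DSS and 10567 to 15128 in F/F naive libraries. After TMM rescaling 2 fibroblast markers were higher and 4 lower in DIEC mice, and 5 lower in F/F mice. The fibroblast markers Cd34 and Mfap5 fell in DIEC (log2 change -0.75 and -1.35) and in F/F mice (-0.71 and -0.99). Of 11 smooth muscle markers, 11 were higher in DIEC and 9 in F/F mice, and their mean log2 level, relative to the mean of all libraries, was 0.13 to 0.48 in DIEC DSS, -0.70 to -0.34 in DIEC naive, 0.16 to 0.50 in F/F DSS and -0.38 to 0.07 in F/F naive libraries. Of 10 endothelial markers, 4 were lower in DIEC and 3 in F/F mice, near the share over all genes, with sums of 3133 to 4958 in DIEC DSS, 3943 to 5494 in DIEC naive, 4145 to 4857 in F/F DSS and 4512 to 5684 in F/F naive libraries. After TMM rescaling 2 endothelial markers were higher in DIEC mice and 2 lower in F/F mice. The smooth muscle counts were the same after TMM rescaling. No marker of these 3 lists was at 0 in all libraries, and their part in the collagen results was not tested.

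Markers of other tissues and cell types also differed between DSS and naive colon. Of 8 pancreatic acinar markers tested, 8 were lower with DSS in each genotype, and their sums were 319 to 388 in DIEC DSS, 5061 to 466626 in DIEC naive, 350.1 to 406 in F/F DSS and 1556 to 87809.7 in F/F naive libraries. Of 5 mesothelial markers 4 were lower in DIEC and 5 in F/F mice, with sums of 627 to 692 in DIEC DSS, 844 to 954 in DIEC naive, 341 to 830.2 in F/F DSS and 818 to 1136 in F/F naive libraries. After TMM rescaling 0 mesothelial markers were lower in DIEC and 4 in F/F mice. Of 8 adipocyte markers 5 were lower in DIEC and 7 in F/F mice, with sums of 1243 to 2898 in DIEC DSS, 3420.3 to 4341 in DIEC naive, 1348 to 1873 in F/F DSS and 2057 to 4795 in F/F naive libraries. The part of these markers in the lower collagen values of DSS colon was not tested. After TMM rescaling 1 adipocyte marker was higher and 3 lower in DIEC mice, and 1 higher and 7 lower in F/F mice. Of 9 leukocyte markers 4 were lower in each genotype, in DIEC mice near the share over all genes. After TMM rescaling 1 leukocyte marker was higher and 4 lower in DIEC mice, and 4 were lower in F/F mice. Epithelial markers were higher in 4 and lower in 1 of 9 in DIEC mice and higher in 2 and lower in 1 in F/F mice, and after TMM rescaling higher in 7 and lower in 1 in DIEC mice and higher in 3 and lower in 0 in F/F mice. For neurons and glia 7 of 13 were higher in DIEC, and 5 higher and 1 lower in F/F mice. After TMM rescaling 8 of them were higher in DIEC mice, and 6 higher and 1 lower in F/F mice. For skeletal muscle 2 of 5 were higher in DIEC and 3 in F/F mice, and 10 of 10 proliferation markers were lower in each. The counts of skeletal muscle and proliferation markers were the same after TMM rescaling.

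Over the 16 libraries, the values of some members rose and fell together, which is given as a description since libraries share group, pool and scaling. Pearson's r on the log2 scale was 0.96 between Col3a1 and Col5a2, 0.93 between Col1a1 and Col1a2, 0.94 between Col6a1 and Col6a2 and 0.90 between Col4a1 and Col4a2. It was 0.68 between Col5a1 and Col5a2 and 0.45 between Col1a1 and Col8a1. Outside the collagen genes, those most like Col1a1 were Adamts2 (0.92), which trims procollagen, the fibroblast receptor Pdgfra (0.91), Lamb1 (0.90), Fstl1 (0.90) and Cav1 (0.89). Those most like Col4a1 were 9430020K01Rik (0.87), the laminin chain Lamc1 (0.86), Slc4a11 (0.84), Tgfb3 (0.84) and Afg3l1 (0.83).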

How the data were processed

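RNA of whole colon was sequenced in 16 libraries. The submitters' processing notes name bcl2fastq, STAR 2.2.0c for alignment and HOMER 4.9. In the deposited signal values the authors scaled each gene's reads by 1 factor per library; 100% of them were whole multiples of 1 read within 0.01, so reads were recovered for the count tests. The authors' deposited log2 fold changes and p-values, raw and adjusted, were used only for a count of shared calls. Table positions are mm9, per the file headers, while the processing notes name mm10; of 44 members 3 lay inside their GRCm38 gene with 1000 bp of margin. The library kit, in its standard form, keeps no strand information. Promoter sequences are RefSeq's, GRCm38.p6, with entries for 35 members; the genes' exon overlaps come from GENCODE M21.

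limma 3.58.1 in R 4.3.3 (trend and robust) was run on log2(value + 1) for 18267 of 24421 genes that reached a value of 1 in 4 or more libraries, with 1 mean per group over all 16 libraries, two-sided. On this scale the changes of low genes are understated. Alternatives were TMM rescaling, pseudocounts of 5 and 0.25, no filter, only the groups compared, a replicate block, edgeR 4.0.16, DESeq2 1.42.0, limma voom and each library left out. The step was tested on simulated data: of 100 genes changed by 1 on the log2 scale among 18267, 84% were called in DIEC DSS against DIEC naive, 85% in F/F DSS against F/F naive and 65% in the interaction. The changed genes were drawn from those with a mean over 20 reads, so lower members such as Col4a3 and Col4a4 are not covered. The simulated data held no scaling shift between groups. No per-gene depth floor was needed for the members named with a fold. Intervals are 95%.

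Values in every library are given for the 3 members of each class with the highest mean value, not divided by length, and up to 5 called members with the largest change per comparison; of the related lists, up to 4 called genes per comparison may be named. The members and lists were chosen with earlier results of these data known. Groups follow the labels, and p-values measure the spread between pools of 3 mice.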

Additional observations from a re-analysis of the deposited data

Results flagged for a closer look

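Among the 16 collagen genes with values given for every library, 64 groups of 4 libraries were looked at for a sample far from the others, which chance finds in about 1 of 20 groups. Col5a2 had a value of 1322 in F/F DSS 2, while the other F/F DSS libraries lay between 1776 and 1796. The gap was 0.96 of the group's range, above Dixon's 95% critical value for 4 samples. Without F/F DSS 2 the fall of Col5a2 in F/F mice was still called. Col6a3 had a value of 1907 in F/F naive 2, while the other F/F naive libraries lay between 2176 and 2228, a gap of 0.84 of the range. Col6a3 was not called in any comparison.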

How the results depend on the processing

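In DIEC DSS against DIEC naive, 8 to 16 collagen genes were called over all settings and in F/F DSS against F/F naive 5 to 15. With 1 library left out, the collagen calls ranged from 8 to 12, 5 to 11 (5 without F/F DSS 3, 6 without F/F naive 4 and 7 without F/F naive 2), 0 to 1 in DIEC naive against F/F naive, 0 to 2 in DIEC DSS against F/F DSS and 0 to 1 in the interaction. Over all genes these ranges were 8893 to 9368, 7279 to 7810, 233 to 386, 4025 to 5845 and 144 to 1662. In DIEC naive against F/F naive, 1 collagen gene, Col8a1, was called under TMM rescaling, edgeR, DESeq2 and limma voom, and 826 of all genes under DESeq2. In DIEC DSS against F/F DSS, 0 were called under TMM rescaling, edgeR, DESeq2, limma voom and the fit of only the groups compared, while all genes gave 2509, 2647, 3071 and 2499 calls under the first 4. In the interaction all genes gave 116 calls under TMM rescaling, 126 under edgeR and 111 under limma voom, against 664. The cause was not tested. Replicate numbers pair nothing per the labels, and correlations over all tested genes between libraries of the same number ran from -0.15 to 0.23. In each comparison not every library correlated best with its own number. These correlations do not describe the 13 high collagen genes alone, for which the library numbered 1 was most often the highest in each group. With the replicate block collagen calls were 16 in DIEC DSS against DIEC naive, 15 in F/F DSS against F/F naive, 3 in DIEC DSS against F/F DSS and 1 in the interaction, where all genes gave 1247. None of the called changes of single collagen genes reversed sign under any of these settings. The authors' deposited table held adjusted p under 0.05 for 6 collagen genes higher and 6 lower in F/F DSS against F/F naive, 9 of them shared with the limma calls, and for 6 higher and 2 lower in DIEC DSS against DIEC naive, 5 of them shared. For 10 members with a mean under 20, depth limits what can be seen.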
